A study of Mus musculus with 10 samples.

Results

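The table counts small RNA reads on 6968 features in 10 libraries of CD43- splenic B-cells, and 372 of these features are typed misc_RNA, an annotation class for non-coding RNAs that are neither microRNA, transfer RNA, snRNA, snoRNA nor ribosomal RNA. The members described here are 68 misc_RNA rows, chosen by their counts: the sum over the 10 libraries had to be 50 or more. Their sums run from 51 (Gm22275) and 56 (Gm25545) up to 98522 (Rmrp), and the first rows left out have sums of 49 and 48. The members hold 99.4% of the 341478 misc_RNA reads, and 304 rows, 6 of them without a read, fall below. The rule used this sum and no comparison of groups.

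The groups were wt mice, mice lacking the 3′RR (the enhancer cluster 3′ of the immunoglobulin heavy chain genes) and mice lacking Eµ (the intronic enhancer of the same locus, deleted as EµMAR), in a 129 background, 8 to 12 weeks old and of both sexes per the study's methods. Both deletions are germline alleles, so the cells developed without the element. Per the labels, cells were cultured for 2 days in medium alone (non-stimulated, NS) or with 5 µg/ml LPS, a bacterial activator of B-cells, while the methods for the companion RNA sequencing speak of cells taken before and after stimulation. There were 2 libraries in each of wt NS, wt LPS, 3′RR-deficient NS and 3′RR-deficient LPS, and 1 library in each of Eµ-deficient NS and Eµ-deficient LPS. The methods for the companion RNA sequencing describe pools of RNA from 2 mice, while a figure legend there gives a different number of mice per genotype. If such pools hold here, p-values measure the spread between pools.

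Most of these transcripts are made by RNA polymerase III and fold into the RNA core of a ribonucleoprotein. RNase MRP (Rmrp) and RNase P (Rpph1) are related ribonucleases that process ribosomal RNA precursors and transfer RNA precursors. Y RNAs bind the Ro60 protein and are a known source of small fragments. Vault RNA belongs to a large cytoplasmic particle, 7SL (Rn7s1, Rn7s2) is the scaffold of the signal recognition particle (SRP) that brings secretory proteins to the endoplasmic reticulum, and 7SK (Rn7sk) holds back the elongation factor P-TEFb. Their genes have left many copies in mammalian genomes. The libraries were size-selected for short inserts and read for 75 nt, whereas the members are annotated at 86 to 423 nt, so a count here is a count of fragments and not of whole transcripts.

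By alignment to the standard gene of each family, the 68 members comprised 31 of 7SK, 13 of SRP, 12 of Y RNA, 6 of RNase P, 2 vault RNAs, Rmrp, the telomerase RNA Terc, and 2 transcripts with no sequence in the annotation used. RNase MRP held 29.0% of the members' counts, SRP 19.9%, Y RNA 19.8%, vault 5.63%, RNase P 4.20% and 7SK 3.59%. The transcripts without a sequence held 17.8%, nearly all on ENSMUST00000157750 (10:4567974-4568213, minus strand, GRCm38), where no other gene is annotated. On a per-length scale, the mean level of Rmrp was 204 CPM per 100 nt in wt NS and 55.0 in wt LPS, that of Rny3 135 and 147 CPM per 100 nt, and that of Rny1 65.0 and 56.1. Over the 4 wt libraries the means of Rny3 and Rmrp were 141 and 129 CPM per 100 nt, whose order thus differed between the conditions, and the other standard genes shown here were lower, at 60.6 (Rny1), 60.04 (Vaultrc5), 38.8 (Rn7s1), 17.6 (Rpph1) and 15.0 (Rn7sk). CPM are counts scaled to 1000000 per library after TMM scaling, which adjusts each library's total for a few abundant features.

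The Y RNA sequences are shown because rows that are copies of Rny1 carried much of the signal. Capitals mark, in the first 4, the 17 nt run CTCACTACTGCACTTGA near the 3′ end that Rny1 (positions 86 to 102) shares exactly with Gm22199, Gm24379, Gm23921 and Gm24372, and, in Gm26168, the 23 nt run of the 5′ part (positions 11 to 33 of Rny1) that it shares with Rny1 and Gm22508. Among the 297 misc_RNA transcripts with a sequence, searched on the transcript strand, 5 hold the 3′ run (1.68%) and 3 hold the 5′ run (1.01%), all of them members. Rny3 holds neither run. All sequences are from GENCODE M21 (GRCm38), in the direction of the transcript, with the coordinates given there.
Rny1 (6:47788069-47788180, minus): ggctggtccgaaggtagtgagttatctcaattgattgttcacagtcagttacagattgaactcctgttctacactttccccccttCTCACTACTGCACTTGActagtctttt
Gm22199 (13:51014086-51014211, plus): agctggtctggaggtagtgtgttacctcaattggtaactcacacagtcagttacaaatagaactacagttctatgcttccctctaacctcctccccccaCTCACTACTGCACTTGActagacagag
Gm24379 (2:158487602-158487687, plus): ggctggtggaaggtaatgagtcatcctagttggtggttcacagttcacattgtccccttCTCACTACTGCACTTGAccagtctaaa
Gm23921 (7:25868945-25869051, plus): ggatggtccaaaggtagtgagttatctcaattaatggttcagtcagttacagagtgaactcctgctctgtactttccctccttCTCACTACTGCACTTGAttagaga
Gm26168 (6:122623547-122623658, plus): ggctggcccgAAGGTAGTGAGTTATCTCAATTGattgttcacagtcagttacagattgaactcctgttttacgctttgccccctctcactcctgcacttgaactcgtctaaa
Rny3 (6:47781624-47781725, plus): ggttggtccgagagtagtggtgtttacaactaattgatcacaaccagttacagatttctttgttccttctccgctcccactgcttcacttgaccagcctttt

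Rmrp and Rpph1 are shown because both rose in the Eµ-deficient libraries. Rmrp overlaps an exon of Ccdc107 on the other strand, so reads of the exon cannot be told apart from Rmrp if counting ignored strand. Rpph1 overlaps an exon of Ccnb1ip1 on its own strand, so reads of that exon cannot be told apart from Rpph1 in any case.
Rmrp (4:43492788-43493058, minus): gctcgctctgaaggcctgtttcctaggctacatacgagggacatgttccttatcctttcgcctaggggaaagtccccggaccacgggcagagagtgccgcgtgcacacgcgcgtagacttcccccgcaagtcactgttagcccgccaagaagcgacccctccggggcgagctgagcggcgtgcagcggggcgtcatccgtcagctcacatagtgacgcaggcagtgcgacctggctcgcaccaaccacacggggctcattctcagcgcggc
Rpph1 (14:50807449-50807767, minus, first 300 of 319 nt): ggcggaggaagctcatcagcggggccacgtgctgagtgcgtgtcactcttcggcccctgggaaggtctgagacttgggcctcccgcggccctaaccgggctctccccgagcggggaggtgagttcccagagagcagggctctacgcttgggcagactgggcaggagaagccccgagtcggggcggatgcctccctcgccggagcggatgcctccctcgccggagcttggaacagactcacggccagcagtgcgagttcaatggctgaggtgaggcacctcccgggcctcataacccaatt

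Rn7sk is shown because sequence sharing limits what its row can say. Capitals mark the 241 nt run of Rn7sk that is also in its copy Gm24447.
Rn7sk (9:78175303-78175633, minus, first 300 of 331 nt): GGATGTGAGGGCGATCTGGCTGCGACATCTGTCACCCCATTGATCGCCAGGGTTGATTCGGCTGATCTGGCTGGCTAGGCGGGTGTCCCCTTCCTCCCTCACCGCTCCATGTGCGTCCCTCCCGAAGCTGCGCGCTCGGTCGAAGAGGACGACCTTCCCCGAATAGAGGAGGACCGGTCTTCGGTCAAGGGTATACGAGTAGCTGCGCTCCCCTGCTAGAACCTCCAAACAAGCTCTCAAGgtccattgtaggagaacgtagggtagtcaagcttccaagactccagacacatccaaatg

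Some copies had nearly equal counts in every library. The ratio of Rn7s1 to Rn7s2 counts lay between 0.967 and 1.01 over the 10 libraries, and that of Gm26456 to Gm24203, both copies of Rny1, between 0.988 and 1.15. The ratio of Rny1 to Rny3, which share no long run, ranged from 0.398 to 1.02. How reads that match several rows were counted is not given in the sources used here. The rows of a family are therefore uncertain one by one and are not independent of each other.

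Libraries held 3482540 to 18144016 counts. The list of B-lymphocyte and pan-leukocyte microRNAs (miR-150-5p, miR-142a-3p, miR-142a-5p, miR-155-5p, miR-181a-5p) summed to 58840 to 231400 CPM, and no library was at 0 for any of the 5. This sum does not tell B-cells from other leukocytes. The 8 microRNAs that mark other cells summed to 1948 to 6953 CPM in the 4 NS libraries and 135 to 842 CPM in the 4 LPS libraries of wt and 3′RR-deficient cells, and to 15700 and 2553 CPM in Eµ-deficient NS and LPS. Of these 8, 1 was at 0 in some library. In bulk RNA, fewer cells of a type and less RNA per cell cannot be told apart. The second NS libraries of wt and of 3′RR-deficient cells stood apart, with ribosomal RNA fragments at 0.347% and 0.266% of counts against 0.00743% to 0.0423% in the other 8, and they were the 2 shallowest.

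The class as a whole was a small share of each library and was largest in the Eµ-deficient cells. It took 0.101% and 0.397% of the counts in wt NS, 0.172% and 0.137% in wt LPS. For 3′RR-deficient cells the shares were 0.112% and 0.346% with medium alone, 0.155% and 0.119% with LPS. In Eµ-deficient cells it took 0.763% in NS (95% Wilson interval 0.759 to 0.768%) and 0.723% in LPS (0.719 to 0.727%). These intervals treat reads as independent draws and leave out the spread between libraries. PCR copies were not collapsed by molecular identifiers, so the intervals understate even the counting error. Both Eµ-deficient shares lay above all 8 others, and among the 8 the second NS libraries of both genotypes were the highest. The mean Eµ-deficient share was 3.68 times the mean wt share. Eµ-deficient libraries also had the highest snoRNA shares (10.5% and 9.61%, against 3.00% to 8.57% elsewhere), and the lowest microRNA shares (60.2% and 51.4%, against 63.9% to 82.1%).

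**Figure D1:**
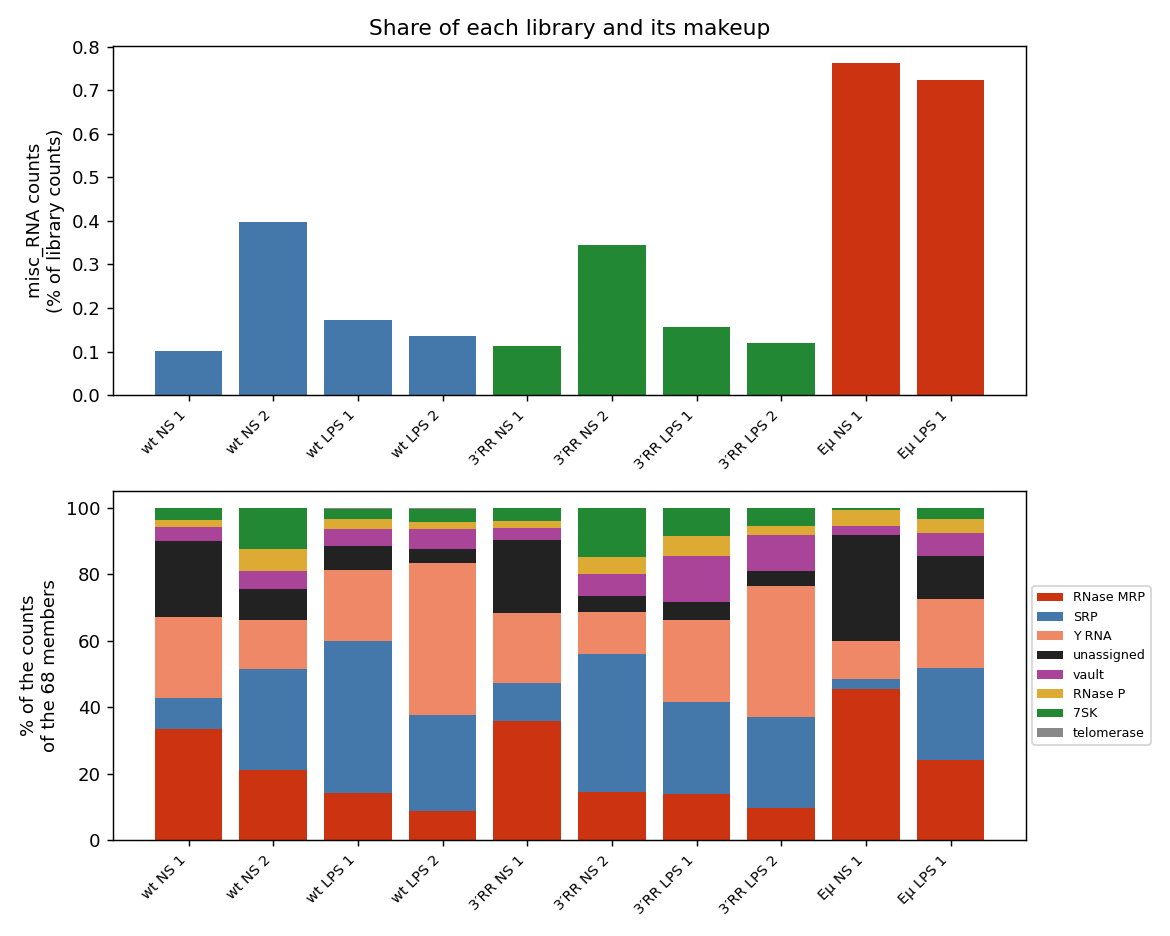
Top, misc_RNA counts as a percentage of all counts in each library. Bottom, how the counts of the 68 members divide among families, in percent. The 2 Eµ-deficient libraries reach 0.763% and 0.723%, and the second NS libraries of wt and 3′RR-deficient cells (0.397% and 0.346%) stand above the other 6. RNase MRP makes 45.3% of the members' counts in Eµ-deficient NS and 8.88% in the second wt LPS library.

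The makeup of the class also differed between libraries. Rmrp alone was 33.3% and 35.8% of the members' counts in the first NS libraries of wt and 3′RR-deficient cells, 21.1% and 14.6% in the second, 8.88% to 14.3% in the LPS libraries, 45.3% in Eµ-deficient NS and 24.2% in Eµ-deficient LPS. SRP rows were 9.37% and 11.5% in the first NS libraries, 30.3% and 41.4% in the second and 27.3% to 45.5% in LPS. In Eµ-deficient cells SRP rows were 3.12% in NS and 27.5% in LPS. Y RNA rows ranged from 11.6% in Eµ-deficient NS to 45.8% in the second wt LPS library.

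The comparison of Eµ-deficient with wt cells asked whether loss of this enhancer goes with a change of these RNAs. Rmrp, Rpph1, both vault rows, 7 of the 12 Y RNA rows and ENSMUST00000157750 rose in Eµ-deficient cells, by 1.91 to 3.51 on the log2 scale, while no row of the SRP or 7SK families passed the test in either direction. The sum that chose the members includes the Eµ-deficient libraries, and 11 members, Gm24045 and 10 of 7SK, reached 50 only with them. Of the 57 members that reach 50 in the other 8 libraries alone, 12 rose (21.1%) and 0 fell, against 3.34% of the 4554 features tested that rose and 0.0878% that fell. None of the other 11 passed. The features, unlike the members, were not held to 50 counts. With a filter of 10 CPM in 2 libraries, 8 of 34 members and 151 of 1934 features rose. Of the 12 calls, 7 are Rny1 and its copies, whose rows may share reads and are not independent. DESeq2 called 13 of the 68 higher, these 12 and Rny3, and 1 lower (Gm22895), against 218 and 24 of the 4377 features it tested. The median log2 difference was 0.71 over the 57 and -0.11 over all features. The test was edgeR's quasi-likelihood test on all 10 libraries with terms for genotype and stimulation, with Benjamini-Hochberg adjustment over all features. With 1 Eµ-deficient library per condition, its error comes mostly from the spread of the other genotypes.

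Rmrp was at 514 and 591 CPM in wt NS and 205 and 93.0 CPM in wt LPS. In 3′RR-deficient cells it was at 731 and 351 CPM in NS and 214 and 93.0 CPM in LPS. It reached 5641 CPM in Eµ-deficient NS and 1408 CPM in Eµ-deficient LPS, 10.2 and 9.45 times the wt means of the same condition. The Eµ-deficient libraries did not overlap with any other, and the log2 difference from wt was 3.30 (SE 0.50, adjusted p = 0.00325).

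ENSMUST00000157750, which has no family here, was, like Rmrp, highest in Eµ-deficient cells and lower in LPS than in NS. The ratio of Rmrp to its counts ranged from 1.43 to 3.09 over the libraries. ENSMUST00000157750 was at 351 and 257 CPM in wt NS, 106 and 41.7 CPM in wt LPS, 443 and 114 CPM in 3′RR-deficient NS and 82.3 and 44.0 CPM in 3′RR-deficient LPS. In Eµ-deficient cells it was at 3936 CPM in NS and 735 CPM in LPS, above every other library. The log2 difference from wt was 3.51 (SE 0.58, adjusted p = 0.00472).

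Rpph1, the RNA of RNase P, was at 30.2 and 157 CPM in wt NS, 19.2 and 18.03 CPM in wt LPS, 43.2 and 108 CPM in 3′RR-deficient NS and 64.8 and 18.2 CPM in 3′RR-deficient LPS. It was at 558 CPM in Eµ-deficient NS and 215 CPM in Eµ-deficient LPS. Both values lay above all others, and the log2 difference from wt was 3.00 (SE 0.70, adjusted p = 0.0339). It was called in 4 of the 10 fits that each left out 1 library, and its adjusted p was 0.0512 with a filter of 10 CPM, 0.0695 with scaling factors from the microRNA class and 0.223 with total counts. Of the other 5 RNase P rows none passed the test: Rprl2 had a log2 difference of 2.27 (adjusted p = 0.163), and Rprl1 one of -0.89 (adjusted p = 0.766).

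Rny1 was at 70.9 and 74.7 CPM in wt NS, 52.3 and 73.4 CPM in wt LPS, 81.0 and 55.0 CPM in 3′RR-deficient NS and 62.8 and 57.2 CPM in 3′RR-deficient LPS. It was at 330 CPM in Eµ-deficient NS and 284 CPM in Eµ-deficient LPS. Rny1 thus varied little over the other 8 libraries and was 4.53 times the wt mean in either condition (log2 difference 2.18, SE 0.37, adjusted p = 0.00598). The 4 copies that hold its 3′ run rose by 1.91 to 1.95 on the log2 scale (adjusted p = 0.0164 to 0.0184), at 4.02 to 4.34 times the wt mean in NS and 3.37 to 3.51 times in LPS. Each of these 4 was called in 5 of the 10 fits that left out 1 library, and Rny1 in 8. Neither Rny1 nor these 4 copies passed with scaling factors from the microRNA class (adjusted p = 0.0536 for Rny1) or with total counts (0.0904 for Rny1).

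The 2 copies with the whole 23 nt run of the 5′ part, Gm26168 and Gm22508, also rose. Gm26168 was at 5.94 to 15.1 CPM in the 4 wt libraries and 8.44 to 11.95 CPM in the 4 3′RR-deficient ones. It was at 83.8 CPM in Eµ-deficient NS and 121 CPM in Eµ-deficient LPS (log2 difference 3.38, SE 0.47, adjusted p = 0.00224). Gm22508 was at 0.41 to 2.37 CPM in wt and at 13.8 and 15.2 CPM in Eµ-deficient cells (log2 difference 3.38, SE 0.59, adjusted p = 0.00663). Exact stretches of 22, 20 and 21 nt of this run are also in Gm23921, Gm26124 and Gm24045, with log2 differences of 1.95, 0.88 and 1.83, of which that of Gm23921 passed. Differences between rows were not tested.

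Rny3, the other standard Y RNA gene, did not pass edgeR's test. It lay between 118 and 168 CPM in wt and between 119 and 153 CPM in 3′RR-deficient cells, the narrowest spread among the 8 members plotted as a ratio of highest to lowest. It was at 322 CPM in Eµ-deficient NS and 289 CPM in Eµ-deficient LPS, so the groups did not overlap (log2 difference 1.09, SE 0.37, adjusted p = 0.196). DESeq2 called it, with an adjusted p of 0.00973. The copies Gm26456, Gm24203 and Gm26124, which lack the full 3′ run, had log2 differences of 0.49, 0.39 and 0.88 (adjusted p = 0.766, 0.815 and 0.631).

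Both vault rows passed the test, Vaultrc5 only just. Vaultrc5 was at 61.6 and 148 CPM in wt NS, 72.5 and 61.8 CPM in wt LPS, 73.8 and 157 CPM in 3′RR-deficient NS and 207 and 103 CPM in 3′RR-deficient LPS. It was at 334 CPM in Eµ-deficient NS and 398 CPM in Eµ-deficient LPS (log2 difference 2.10, SE 0.52, adjusted p = 0.0493). It was called in 1 of the 10 fits that each left out 1 library, and its adjusted p was 0.0686 with DESeq2 size factors and 0.437 with total counts. Gm25403 was at 0.62 to 3.48 CPM in wt and at 13.5 and 5.35 CPM in Eµ-deficient NS and LPS (log2 difference 2.55, SE 0.51, adjusted p = 0.015), and was called in 5 of those 10 fits. Its adjusted p was 0.0652 with a term for replicate number, 0.122 with scaling factors from the microRNA class and 0.214 with total counts.

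The 7SL rows differed between the Eµ-deficient libraries themselves. Rn7s1 was at 145 CPM in Eµ-deficient NS, between the wt NS libraries (37.2 and 219 CPM), and at 523 CPM in Eµ-deficient LPS, above the wt LPS libraries (134 and 70.5 CPM). Its log2 difference from wt was 1.61 (SE 0.80, adjusted p = 0.393). Rn7sk was at 33.5 and 81.2 CPM in Eµ-deficient NS and LPS, against 17.7 and 154 CPM in wt NS and 14.2 and 12.4 CPM in wt LPS (log2 difference 1.12, SE 1.00, adjusted p = 0.688). The median log2 difference was 0.35 over the 13 SRP rows and 0.61 over the 21 7SK rows that reach 50 counts without the Eµ-deficient libraries. The 7SK copy Gm22895 went furthest the other way, at -3.71 (SE 1.26, adjusted p = 0.196).

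**Figure D2:**
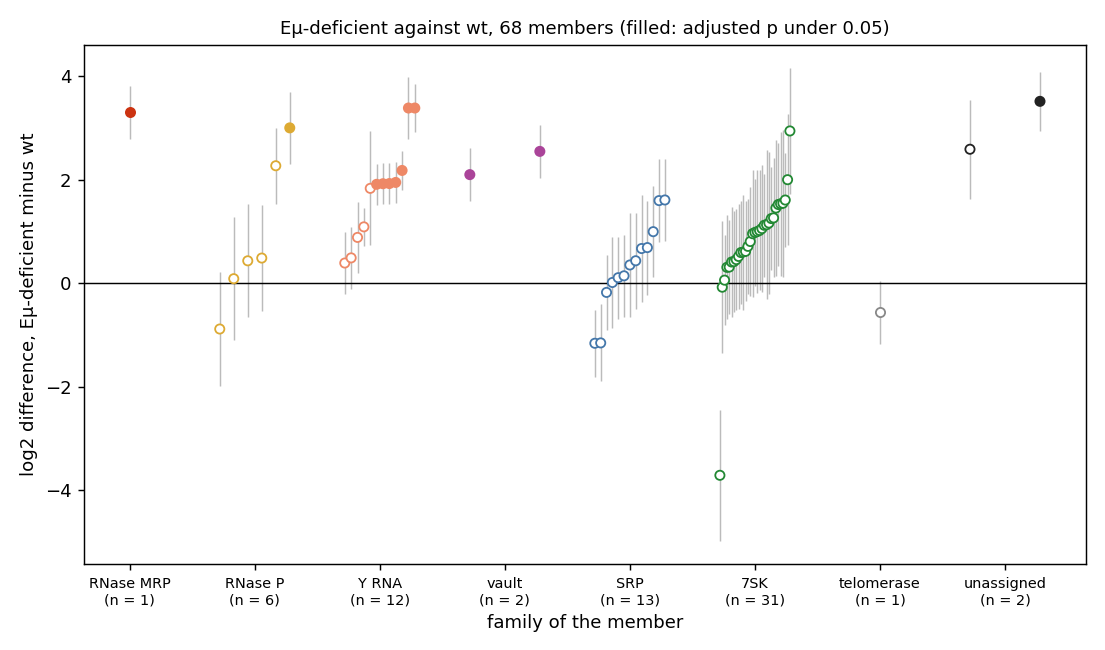
Log2 difference of Eµ-deficient from wt for the 68 members, by family. Points are members, bars are 1 SE of the fit, and filled points have an adjusted p under 0.05. All 12 filled points lie above 0, in the RNase MRP, RNase P, Y RNA and vault columns and at ENSMUST00000157750, and no SRP or 7SK row is filled.

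**Figure D3:**
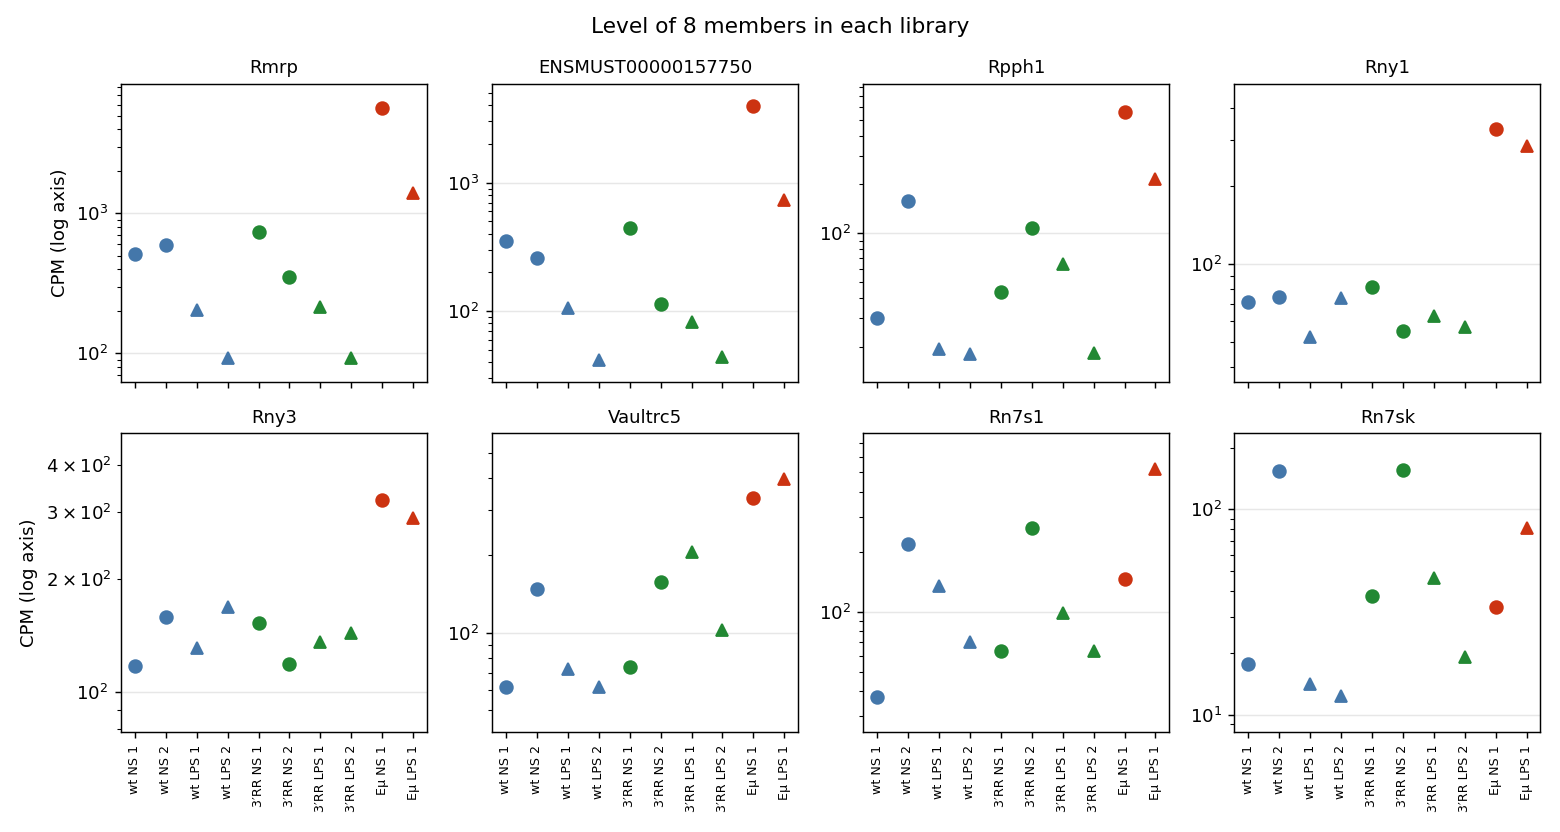
TMM-scaled CPM of 8 members in each of the 10 libraries, on log axes. Circles are NS and triangles LPS libraries, with wt in blue, 3′RR-deficient in green and Eµ-deficient in red. Both Eµ-deficient libraries lie above the other 8 for Rmrp, ENSMUST00000157750, Rpph1, Rny1, Rny3 and Vaultrc5, but not for Rn7s1 or Rn7sk, which are highest or next to highest in the second NS libraries outside the Eµ-deficient cells.

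Both Eµ-deficient libraries lay above all 4 wt libraries for 14 of these 57 members, and the same 14 lay above all 8 other libraries (24.6%), against 9.6% and 6.54% of all features tested. Markers of other cell types moved with this comparison. The 3 erythroid microRNAs summed to 9242 CPM in Eµ-deficient NS against 4235 and 1536 CPM in wt NS, and to 1817 CPM in Eµ-deficient LPS against 227 and 63.4 CPM in wt LPS. The myeloid microRNA was at 5765 CPM in Eµ-deficient NS against 1741 and 284 CPM, and at 252 CPM in LPS against 95.7 and 35.0 CPM. The 4 stromal and endothelial microRNAs summed to 697 CPM in Eµ-deficient NS, between the wt NS libraries (977 and 128 CPM), and to 483 CPM in LPS, above the wt LPS libraries (75.8 and 37.1 CPM). Their part in the result was not tested. The count moved with the libraries used, and so did that over all features, which was 156 in either direction with the 10 libraries. It was 1 (Gm26168) without the Eµ-deficient NS library, where 40 features were called, and 2 (Gm26168 and Rmrp) without the Eµ-deficient LPS library, where 46 were. It was 5 without the first wt NS library (96 features), 5 without the first wt LPS library (120 features) and 6 without the first 3′RR-deficient NS library (110 features). It was 3 when libraries were scaled by total counts (Gm26168, Rmrp and ENSMUST00000157750, of 96 features) and 4 with scaling factors taken from the microRNA class (of 121 features). Without the second NS libraries it was 20, with 19 higher and 1 lower (Gm22895), against 6.58% and 0.814% of all features. Rn7s1, Rn7s2, Rn7sk and all 12 members above were among the 19. Other classes also held more calls than the 3.43% of all features: 44 of 322 snoRNA (13.7%) and 47 of 426 transfer RNA features (11%) rose, against 29 of 978 microRNAs and 4 of 284 snRNAs. Counted the same way, over all rows tested, misc_RNA had 12 of 95 (12.6%), between the snoRNA and transfer RNA shares.

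The second NS libraries must be described before the LPS comparison, because fragments of SRP, 7SK and RNase P RNA were several times higher in them. Rn7sk was at 17.7 CPM in the first and 154 CPM in the second wt NS library, and at 37.8 and 156 CPM in the 3′RR-deficient ones. Rn7s1 was at 37.2 and 219 CPM in wt NS and at 63.8 and 262 CPM in 3′RR-deficient NS. The second library was the higher in both genotypes for 50 of the 66 members tested (75.8%), against 31.5% of all features. These were all 13 SRP rows, 28 of the 7SK rows, all 6 RNase P rows, 1 Y RNA row, Vaultrc5 and ENSMUST00000175015. Over rows with a read in the first library, the median ratio of second to first in wt was 5.95 for SRP, 6.80 for 7SK, 6.04 for RNase P and 1.03 for Y RNA. In 3′RR-deficient cells it was 4.11, 6.18, 5.01 and 0.679. The labels name no batch or date.

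**Figure D4:**
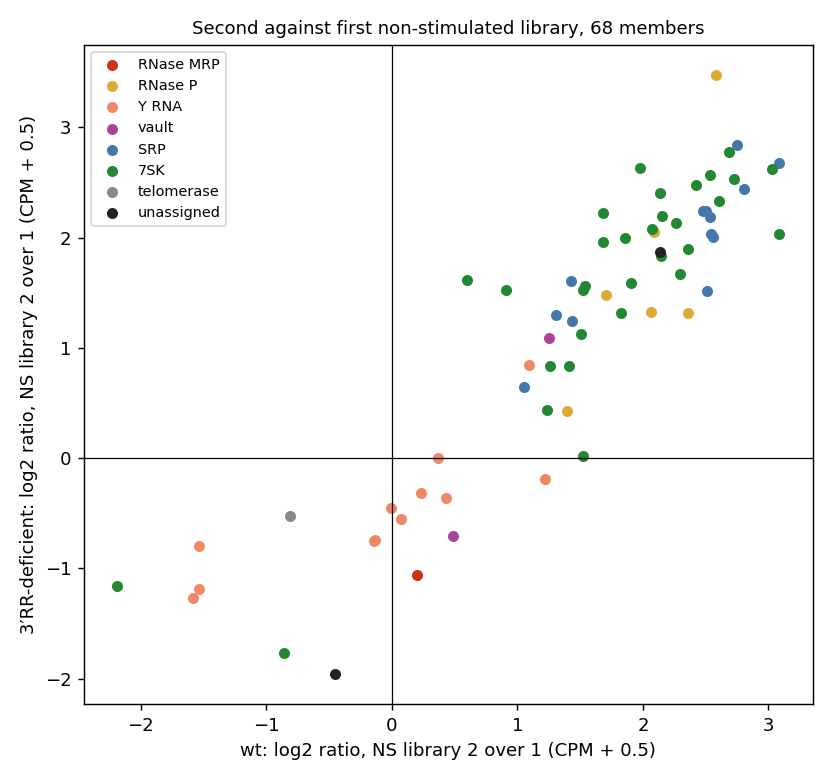
Log2 ratio of the second to the first NS library for the 68 members, in wt (horizontal axis) and 3′RR-deficient cells (vertical axis), with 0.5 CPM added to each value. Points are members coloured by family. All SRP, RNase P and most 7SK rows lie to the upper right, higher in the second library of both genotypes, while Rmrp and nearly all Y RNA rows do not.

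The LPS comparison over wt and 3′RR-deficient cells asked which of these RNAs change on B-cell activation. Of 66 members tested in the 8 libraries, 1 fell and 0 rose, against 2.36% and 2.16% of all 3987 features. The one that fell was Gm23037, a 7SK copy in an intron of Zfp318. It was at 8.23 and 44.4 CPM in wt NS, 1.81 and 4.42 CPM in wt LPS, 15.1 and 57.7 CPM in 3′RR-deficient NS and 6.81 and 4.51 CPM in 3′RR-deficient LPS. All 4 NS values lay above all 4 LPS values (log2 difference -2.98, SE 0.65, adjusted p = 0.0353). Its highest values were in the second NS libraries, and without them the difference was -1.40 (adjusted p = 0.0908). It was called in 2 of the 8 fits that each left out 1 library, those without the first wt NS and without the first 3′RR-deficient NS library.

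Rmrp and ENSMUST00000157750 were lower with LPS in every library but missed the threshold. The values of Rmrp given above put the NS libraries at 351 to 731 CPM and the LPS libraries at 93.0 to 214 CPM (log2 difference -1.91, SE 0.48, adjusted p = 0.0523). ENSMUST00000157750 was at 114 to 443 CPM in NS and 41.7 to 106 CPM in LPS (log2 difference -2.15, SE 0.54, adjusted p = 0.0523). With DESeq2 size factors both passed (adjusted p = 0.0491 for each), and over the 8 fits that each left out 1 library Rmrp was called in 0 and ENSMUST00000157750 in 1, that without the second 3′RR-deficient NS library. Without the second NS libraries of both genotypes both passed, at -2.03 (adjusted p = 0.0302) and -2.55 (adjusted p = 0.013), and they were the 2 members that fell, with 0 rising, against 4.84% and 1.95% of all features. In the Eµ-deficient pair, outside this fit, Rmrp was likewise lower in LPS (1408 against 5641 CPM).

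The Y RNA copies Gm24203, Gm26456 and Gm26124 were higher with LPS in every library, also short of the threshold. Gm24203 was at 5.69 and 1.64 CPM in wt NS, 6.83 and 25.4 CPM in wt LPS, 4.92 and 1.88 CPM in 3′RR-deficient NS and 14.1 and 16.4 CPM in 3′RR-deficient LPS. The groups did not overlap, and the log2 difference was 2.02 (SE 0.53, adjusted p = 0.0584). Gm26456, whose counts are nearly the same as those of Gm24203, had a log2 difference of 1.95 (adjusted p = 0.0656), and Gm26124 one of 1.98 (adjusted p = 0.0957). Gm26168, which also lacks the full 3′ run, had one of -0.25. Rny1 and Rny3 themselves had log2 differences of -0.29 (95% interval -0.92 to 0.33) and -0.02 (-0.65 to 0.62). These are Wald intervals of the fit with normal quantiles, narrower than the quasi-likelihood test implies.

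All 4 NS libraries lay above all 4 LPS libraries for 4 members, and all 4 LPS above all 4 NS for 3, against 6.14% and 10.4% of all features. Over the 58 members in both fits, the median log2 difference was -0.55 with the 8 libraries and 0.70 without the second NS libraries, while that of all features tested in each fit was -0.05 and 0.15. Of these 58, 29 were negative with the 8 libraries and positive without the second NS libraries, 15 were negative in both and 14 positive in both. Over the same rows, the SRP median went from -0.54 to 1.14, that of 7SK (22 rows) from -1.41 to 0.39, that of RNase P from 0.35 to 2.77 and that of Y RNA from -0.02 to 0.10. No SRP, 7SK or RNase P row passed the test without those libraries.

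**Figure D5:**
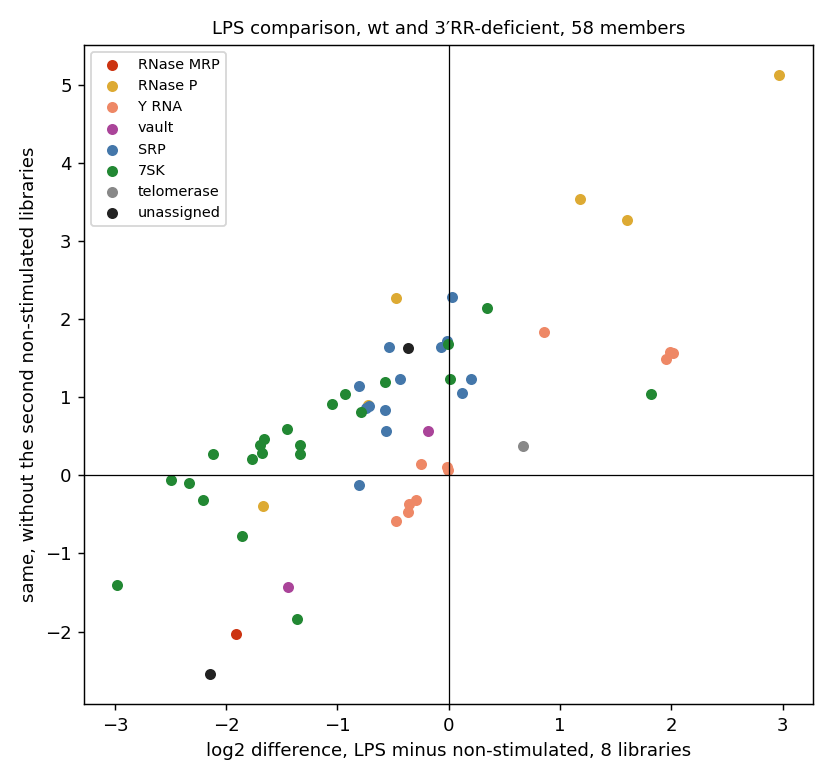
Log2 difference of LPS from NS for the 58 members present in both fits, with all 8 wt and 3′RR-deficient libraries (horizontal axis) and without the second NS libraries (vertical axis). Points are members coloured by family. The 29 points at the upper left change sign, and Rmrp, ENSMUST00000157750 and Gm23037 stay negative on both axes.

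The share of calls in each direction also moved with the scaling. With scaling factors from the microRNA class 4 of 66 members rose and 3 fell, against 424 and 77 of the 3987 features. With total counts 3 rose and 2 fell, against 271 and 69 features, while the median of all features shifted from -0.05 to 0.57 and 0.35. DESeq2 called 3 higher (Gm24203, Gm26456, Gm26124) and 6 lower (Gm23037, Rmrp, ENSMUST00000157750, Rn7sk, Gm23973, Zakit), against 245 and 323 of the 3987 features. The summed markers of other cells moved with this comparison, at 1948 to 6953 CPM in NS and 135 to 842 CPM in LPS. Their part in the result was not tested.

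Within 1 genotype, with 2 libraries against 2, edgeR called 0 of 66 members and 0% of all features in either genotype. An unadjusted p under 0.05 was reached by 12 of 66 members in wt and 7 in 3′RR-deficient cells, and by 453 and 415 of the 3987 features, and DESeq2 called 1 member in wt and 0 in 3′RR-deficient cells, against 3.21% and 4.49% of the features it gave an adjusted p. The smallest p-values in wt were those of Gm23037 (log2 difference -3.16, adjusted p = 0.301), Zakit (-3.63, adjusted p = 0.348) and Gm25403 (-2.19, adjusted p = 0.368). In 3′RR-deficient cells they were those of Gm23037 (-2.80, adjusted p = 0.398), ENSMUST00000157750 (-2.21, adjusted p = 0.423) and Rmrp (-1.89, adjusted p = 0.423). Rmrp had a log2 difference of -1.93 in wt.

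The comparison of 3′RR-deficient with wt cells asked whether this enhancer cluster bears on the same RNAs. No member passed the test in NS, in LPS, over both conditions or in the difference of the LPS responses, where 0%, 0%, 0.0251% and 0% of all features passed. DESeq2 called 0 members in each, and 2, 2, 8 and 0 of the 3987 features in the same order. An unadjusted p under 0.05 was reached by 1 member in NS and by 0 in the other 3 comparisons, and by 59, 55, 85 and 39 features. Over both conditions the log2 difference was -0.03 for Rmrp (95% interval -0.94 to 0.89), -0.11 for Rny1 (-0.73 to 0.52) and -0.09 for Rny3 (-0.72 to 0.54). It was 0.66 for Vaultrc5 (-0.30 to 1.62), 0.42 for Rpph1 (-0.88 to 1.72), -0.02 for Rn7s1 (-1.27 to 1.23) and 0.73 for Rn7sk (-0.67 to 2.13). These Wald intervals use normal quantiles and are narrower than the quasi-likelihood test implies. Even so, they leave room for changes of nearly 2-fold in Rmrp and of over 4-fold in Rn7sk, so the data do not show that the genotypes are alike.

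The members closest to a difference were rare ones. Gm22895, a 7SK copy, was at 4.57 and 0.61 CPM in wt NS and at 0.61 and 0 CPM in 3′RR-deficient NS (log2 difference -3.01, unadjusted p = 0.0423, adjusted p = 1). Gm22649, an SRP copy, and Rprl1, an RNase P copy, followed in NS, at 1.25 and -2.04 (adjusted p = 1 for both). In LPS the smallest p-values were those of Terc (-1.37), Gm26023 (2.54) and Gm26102 (3.03), each with an adjusted p of 1.

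Terc, the template RNA of telomerase, also had the smallest p over both conditions. It was at 3.25 and 1.64 CPM in wt NS, 6.55 and 3.59 CPM in wt LPS, 1.85 and 1.13 CPM in 3′RR-deficient NS and 2.82 and 1.29 CPM in 3′RR-deficient LPS. The groups overlapped, and the log2 difference was -1.07 (SE 0.50, unadjusted p = 0.0578, adjusted p = 0.999). Gm22895 (-1.69) and Gm26102 (2.46) followed. For the difference of the LPS responses, the smallest p-values were those of Gm25403 (1.46), Gm22895 (2.10) and Gm24812 (-1.36), each with an adjusted p of 1.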

How the data were processed

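Small RNA of 10 libraries was prepared with the NextFlex kit (17 PCR cycles), size-selected at 140 to 160 nt and read for 75 nt. The submitters' processing notes name cutadapt 1.2.1, Bowtie2 and mm10. The counting program, its use of strand and its handling of reads with several matches are not given in the sources used here. The authors deposited raw counts per feature and library, without normalization. Libraries were grouped by the labels. The members and lists were chosen with earlier results of these data known. Families come from local alignment (Biopython 1.88) to Rmrp, Rpph1, Rny1, Rny3, Rn7s1, Rn7sk, Vaultrc5 and Terc over at least 40% of the reference, a choice made after seeing the data because most names give no family. Of the members, 66 matched GENCODE M21 by transcript ID, 53 at the same coordinates and 13 shifted by up to 27 nt.

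Counts were tested with edgeR 4.0.16 (R 4.3.3): TMM over all features, filterByExpr by group, quasi-likelihood test, Benjamini-Hochberg adjustment over all features tested, threshold 0.05. The wt and 3′RR-deficient comparisons used 8 libraries, and the Eµ-deficient comparison used 10, with genotype and stimulation as terms. The methods name no test for these counts. The script was tested on simulated data. Depth was 3482540 to 18144016 counts. Before TMM scaling, 3 counts, the limit a count of 0 allows, correspond to 0.165 to 0.861 CPM. This range cannot be set directly against the CPM of the members, which are after TMM scaling. On that scale 3 counts in the second wt NS library were 0.614 CPM (Gm22895). Named members are the 12 with the largest sums, the standard genes, those called in a comparison (at most 6 a direction by size; here all 12 in the Eµ-deficient comparison, beyond that rule), and, where fewer than 3 were called, the 3 smallest p-values. Gm24203, Gm26456, Gm26124, Gm24045, Gm23973 and Rprl2 were named after their values were seen. Alternatives were other scalings, other filters, DESeq2 1.42.0, a replicate block, leaving out each library and, chosen after seeing the data, leaving out the second NS libraries.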

Additional observations from a re-analysis of the deposited data

Results flagged for a closer look

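For 16 of the 68 members the single pair of Eµ-deficient libraries moved opposite to wt between NS and LPS, where the wt NS and LPS libraries did not overlap. Among the 57 members that reach 50 counts without the Eµ-deficient libraries it was 14 (24.6%), 13 of them 7SK rows. Over all features tested, which were not held to 50 counts, it was 616 of 4554 (13.5%). In 14 of the 16 the Eµ-deficient level was higher in LPS and both wt LPS libraries lay below both wt NS libraries. Among those named in the text, the Eµ-deficient level in LPS was 2.43 times that in NS for Rn7sk, 1.602 times for Gm23037, 1.597 times for Gm23973, 4.87 times for Zakit and 5.28 times for Gm26023. In the other 2 both wt LPS libraries lay above both wt NS libraries, and the Eµ-deficient level in LPS was 0.737 times that in NS for Gm22895 and 0.804 times for Terc. The difference between the genotypes was not tested, and it rests on 1 Eµ-deficient library per condition. No group held the 4 libraries needed to look for single libraries far from the rest.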

How the results depend on the processing

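Counts of members called are given with the share of all features called in the same fit. In Eµ-deficient against wt cells the count was 12 of 68 (all features 3.43%), and it moved to 11 with DESeq2 size factors (3.32%), 4 with microRNA-class scaling (2.66%), 3 with total counts (2.11%), 16 with no filter (4.23%), 8 of 34 with at least 10 CPM in 2 libraries (8.01%), 14 with DESeq2 (5.53%), 9 with the replicate block (2.96%; Rpph1, Vaultrc5 and Gm25403 lost), 21 with the block within condition (8.48%; 20 higher, with Rny3 at an adjusted p of 0.0354, and Gm22895 lower) and 20 of 67 without the second NS libraries (7.39%). Leaving out 1 library gave 1 to 13 (0.889% to 3.86%). Over both genotypes, LPS against NS gave 1 call of 66 (4.51%), and it gave 3 with DESeq2 size factors (5.24%), 7 with microRNA-class scaling (12.6%), 5 with total counts (8.53%), 16 of 68 with no filter (11.0%), 5 of 33 with at least 10 CPM in 2 libraries (15.4%), 3 with the replicate block (7.35%, Rmrp and ENSMUST00000157750 at adjusted p of 0.0173 and 0.0123), 9 with DESeq2 (14.2%) and 2 of 58 without the second NS libraries (6.79%). Leaving out 1 library gave 0 to 6 (0.663% to 7.44%). With the block within condition the LPS term is a different contrast, of the first LPS with the first NS libraries. It gave 14 calls (11.5%), with 7 SRP, 4 RNase P and 1 7SK row higher. Rmrp and ENSMUST00000157750 were lower in it, at adjusted p of 0.0201 and 0.0082. Gm23037 was not called there (adjusted p of 0.0646), and the median over the members was 0.87. In wt alone the count of 0 became 3 with no filter (2.69%) and 1 with DESeq2 (3.21%), and in 3′RR-deficient cells 2 with no filter (2.54%). The block within condition, again a contrast of the first libraries, gave 1 in wt (0.803%). The causes were not tested. The share of misc_RNA in Eµ-deficient over wt libraries, 3.68, was 2.48 outside the microRNA class and 2.96 without Rmrp.

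The sources do not say whether NS and LPS libraries with the same replicate number share mice. The main fits treat all libraries as independent. The correlation of replicate differences does not settle this. Over 3987 features it was 0.694 between the NS groups and 0.365 between the LPS groups, but -0.228 to -0.0109 between NS and LPS groups. Over the 66 members it was 0.906, 0.553 and -0.55 to -0.471. Of the named members, Rprl1 in 3′RR-deficient against wt NS turned to 0.26 without the second wt NS library (range -6.86 to 0.26 over libraries left out), and Gm26102 in LPS to -0.13 without the first 3′RR-deficient LPS library (range -0.13 to 3.95). Scaling moved the median of all features in the Eµ-deficient comparison from -0.11 to -0.34 (microRNA class) and -0.39 (total counts). Copies with a few CPM rest on few reads.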
